A study of Mus musculus with 43 samples.

Results

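The 9 genes examined here write, copy or remove DNA methylation, or stand under its control in germ cells: Dnmt1, Dnmt3a, Dnmt3b, Dnmt3l, Uhrf1, Tet1, Tet2, Tet3 and Tex19.1. They were taken by symbol from the 55401 genes of the RNA tables, and Tex19.1 was selected on its level in sorted Prmt1-dKO cells, so that contrast is described for Tex19.1 without a test. Prmt1, the main enzyme of asymmetric arginine dimethylation, was deleted in male germ cells of C57BL/6J mice, with a Ddx4 knock-in allele that makes HA-tagged Ddx4, EGFP and CreERT2 and with floxed exons 4 and 5 of Prmt1. All RNA came from P7 mice given tamoxifen on 3 days. EGFP-positive spermatogonia were sorted for Smart-seq2 (2 WT and 2 Prmt1-dKO libraries), and total RNA of whole testes was used for bulk RNA-seq (3 WT and 3 Prmt1-dKO libraries), although the labels of the latter name spermatogonia. The labels call the controls WT, while the sorting methods describe controls with one floxed Prmt1 allele and the Ddx4 knock-in. CUT&Tag, an antibody-directed profile of chromatin marks, gave 33 peak lists from tubule cells of P7 and P14 mice for H3K4me3, H3K27ac, H4R3me2a, H3R2me2a, H3R8me2a, H4R3me1 and H4R3me2s, with Prmt1-dKO lists for H4R3me2s at P7. The P14 samples are titled as spermatogonia and labelled as spermatocytes.

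DNA methylation in mammals is a methyl group on the cytosine of CG dinucleotides. Dnmt3a and Dnmt3b place it on unmethylated DNA with the help of Dnmt3l, which has no enzymatic activity of its own, and after replication Uhrf1 binds half-methylated CG and brings in Dnmt1 to copy the pattern. Tet1, Tet2 and Tet3 oxidise the methyl group, a step towards its removal. In the male germ line the pattern is erased in primordial germ cells and rebuilt before and around birth, and Tex19.1 is one of the germline genes whose promoter methylation keeps it silent in somatic tissues.

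Promoters are shown here for genes whose peaks and levels are described next. Each is the 250 bases before a RefSeq start site on GRCm38.p6, written along the transcribed strand, with every CG in capitals. Tex19.1 lies at chr11:121145893-121146142 (plus strand) and holds 15 CG, more than 72.7% of the 32851 promoters of the same length. Dnmt3a has an upstream start, shown with its window chr12:3806730-3806979 (plus strand, 38 CG), and an internal start within the gene, chr12:3891494-3891743 (plus strand, 15 CG). One of the 3 Dnmt3l windows, chr10:78049592-78049841 (plus strand), holds 4 CG.
Tex19.1: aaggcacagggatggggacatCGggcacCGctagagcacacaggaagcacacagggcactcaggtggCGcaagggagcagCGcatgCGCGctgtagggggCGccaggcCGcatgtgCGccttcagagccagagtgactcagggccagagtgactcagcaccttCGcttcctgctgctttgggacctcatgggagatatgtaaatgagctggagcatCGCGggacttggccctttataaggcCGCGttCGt
Dnmt3a upstream: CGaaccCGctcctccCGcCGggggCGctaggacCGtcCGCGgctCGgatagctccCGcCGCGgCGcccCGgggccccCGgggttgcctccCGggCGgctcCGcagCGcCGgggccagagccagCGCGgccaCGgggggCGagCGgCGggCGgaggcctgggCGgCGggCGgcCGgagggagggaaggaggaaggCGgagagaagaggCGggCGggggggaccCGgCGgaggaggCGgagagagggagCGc
Dnmt3a internal: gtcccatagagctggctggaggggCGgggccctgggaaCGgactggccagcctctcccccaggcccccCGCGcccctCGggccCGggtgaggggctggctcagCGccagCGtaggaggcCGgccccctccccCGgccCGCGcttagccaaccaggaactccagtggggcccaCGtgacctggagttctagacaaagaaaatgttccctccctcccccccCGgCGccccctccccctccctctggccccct
Dnmt3l: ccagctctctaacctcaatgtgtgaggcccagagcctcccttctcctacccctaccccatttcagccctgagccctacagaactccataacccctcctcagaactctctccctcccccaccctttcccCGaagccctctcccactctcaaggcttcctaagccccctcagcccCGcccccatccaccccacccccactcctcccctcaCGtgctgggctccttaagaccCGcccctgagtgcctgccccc
The median promoter held 6 CG, with quartiles of 2 and 16. Across the 16 RefSeq windows of the 9 genes the number ran from 2, at the outermost Dnmt1 start, to 51 at Tet2. The 3 Dnmt3l windows held 3, 4 and 5 CG, all below the median promoter, and Tex19.1 and Tet1 (15 CG each) lay below the upper quartile.

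A search of both strands for GGCGGGAA, letters bound by E2F factors, found 1 match among the 16 windows, in a Uhrf1 window at chr17:56303087-56303336 (plus strand). There the match stands in capitals as its complement on the opposite strand, at positions -48 to -41 before the start.
Uhrf1: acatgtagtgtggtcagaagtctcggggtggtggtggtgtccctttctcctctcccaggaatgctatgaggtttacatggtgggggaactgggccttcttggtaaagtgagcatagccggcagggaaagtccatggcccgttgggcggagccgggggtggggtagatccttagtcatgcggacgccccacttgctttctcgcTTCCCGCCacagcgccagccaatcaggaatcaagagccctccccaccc
These letters occurred in 1.86% of the 32851 promoters. The E-box CACGTG, which reads the same on both strands and itself holds a CG, occurred in 6.02% of promoters and in 2 windows of these genes, at -80 to -75 before the internal Dnmt3a start and at -44 to -39 in the Dnmt3l window printed above. All 16 windows were equal to the genome sequence of that build.

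The RNA libraries held between 12396345 and 18547103 counts. In CPM (counts scaled to library size, with TMM within each assay), Prmt1 itself stood at 234 ± 14.1 in testes of WT mice against 167 ± 27.9 in those of Prmt1-dKO mice (SD, 3 libraries each), and at 183 ± 47.5 against 99.5 ± 18.3 in sorted cells (2 libraries each). Reads over the whole gene check the deletion of exons 4 and 5 only in part. The 8 germ cell markers were present in every library. In sorted WT libraries all 6 macrophage markers and all 4 endothelial markers were at 0, while the sorted Prmt1-dKO libraries had a summed macrophage level of 51.8 TPM (RSEM's unit, scaled to transcript length and library size) each, with 1 of 6 markers at 0. The summed Sertoli markers were 173 and 215 TPM in sorted WT and 286 and 382 TPM in sorted Prmt1-dKO libraries, and the summed germ cell markers 1238 and 1293 against 1518 and 1533 TPM. In whole testes the summed level of the 5 Leydig markers was 618 to 719 TPM in WT and 156 to 178 TPM in Prmt1-dKO, that of the 6 Sertoli markers 3860 to 4157 against 2584 to 2901 TPM, that of the 5 peritubular myoid markers 827 to 900 against 290 to 507 TPM, and that of the 8 germ cell markers at least 1379 against 1281 to 1357 TPM. No label says whether replicates came from separate animals, so p-values measure the spread between these libraries.

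Per unit of transcript length, Dnmt1 and Tex19.1 led the 9 genes in WT testes, at 108 ± 10.04 and 95.6 ± 3.62 TPM (SD, n = 3), and their libraries overlapped. Uhrf1 followed at 86.8 ± 5.31 TPM and Dnmt3a at 53.0 ± 1.71 TPM, each apart from its neighbours in every library. Dnmt3b (32.7 ± 4.24 TPM) and Tet3 (28.1 ± 3.26 TPM) overlapped. Tet2 stood at 6.14 ± 2.02 TPM, above Tet1 (2.37 ± 0.30 TPM) and Dnmt3l (1.37 ± 0.70 TPM), which overlapped. The order therefore placed the maintenance pair and Tex19.1 above the de novo enzymes, with Tet3 as the highest of the TET enzymes. In sorted WT cells the order of TPM was Dnmt3a (164 and 176), Tex19.1 (121 and 126), Dnmt1 (118 and 91.8), Uhrf1 (69.4 and 70.9), Tet3 (34.6 and 26.8), Dnmt3b (31.2 and 21.9) and Tet2 (7.71 and 8.37), with Dnmt3l at 0.14 and 0 and Tet1 at 0 in both. Tet3 and Dnmt3b overlapped there. The place of Dnmt3a rests on the transcript length that RSEM assigned to it, given at the end.

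In whole testes Dnmt1 and Uhrf1, the maintenance pair, were lower in Prmt1-dKO mice, each by less than 2-fold. Dnmt1, the copying methyltransferase, had 357, 350 and 312 CPM in the WT libraries and 232, 203 and 184 CPM in the Prmt1-dKO libraries. The groups did not overlap, and Dnmt1 fell by 0.72 on the log2 scale (SE 0.12, FDR = 0.0047 from edgeR). Uhrf1, its recruiter, had 179, 172 and 167 CPM in WT and 107, 99.2 and 77.6 CPM in Prmt1-dKO testes. This was the most negative of the 9 log2 fold changes in whole testes, at -0.87 (SE 0.13, FDR = 0.00334), again without overlap.

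Of the de novo methylation genes, Dnmt3a had 267, 259 and 242 CPM in WT testes and 216, 160 and 177 CPM in Prmt1-dKO testes, which did not overlap, and fell by 0.47 on the log2 scale (SE 0.13, FDR = 0.0318). Dnmt3a no longer passed in 5 of 10 alternative settings, among them the removal of any 1 WT library (FDR = 0.132, 0.115 and 0.0752 without replicates 1, 2 and 3) or of Prmt1-dKO replicate 3 (FDR = 0.0767). Dnmt3b had 77.9, 90.2 and 73.0 CPM in WT against 77.3, 63.2 and 75.2 CPM in Prmt1-dKO libraries. These ranges overlapped, with a log2 fold change of -0.16 (SE 0.13, FDR = 0.406). Dnmt3l had few reads in every testis library, 14, 13 and 24 expected counts in WT and 20, 44 and 36 in Prmt1-dKO. The ranges overlapped, and the log2 fold change of 1.15 (SE 0.42) did not pass the test (FDR = 0.0859).

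Of the TET enzymes none passed the test in whole testes. Tet3 had 193, 197 and 171 CPM in WT and 169, 97.4 and 141 CPM in Prmt1-dKO testes. The groups did not overlap, with a log2 fold change of -0.46 (SE 0.18, FDR = 0.108), and Prmt1-dKO replicate 2 was the lowest library. Tet1 had 18.9, 18.3 and 15.7 against 13.9, 12.1 and 16.6 CPM, which overlapped (log2 fold change -0.31, SE 0.16, FDR = 0.205). Tet2 had 21.7, 21.8 and 14.3 against 28.5, 14.9 and 34.2 CPM, also overlapping (0.43, SE 0.29, FDR = 0.328). Without Prmt1-dKO replicate 2 the value for Tet2 was 0.70 with an FDR of 0.00461, and without Prmt1-dKO replicate 1 that for Tet3 was -0.67 with an FDR of 0.0436. Tet3 also passed with no filter on low counts (-0.48, FDR = 0.0271). Other omissions moved both values towards 0, that of Tet2 to 0.17 (FDR = 0.706) without Prmt1-dKO replicate 3 and 0.24 (FDR = 0.648) without WT replicate 3, and that of Tet3 to -0.27 (FDR = 0.0506) without Prmt1-dKO replicate 2.

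Tex19.1 in whole testes, a contrast that did not choose it, had 85.2, 91.8 and 91.6 CPM in WT and 103, 94.4 and 107 CPM in Prmt1-dKO libraries. All 3 Prmt1-dKO libraries lay above the WT libraries, with a log2 fold change of 0.18 (SE 0.10, FDR = 0.238). The FDR was 0.046 without Prmt1-dKO replicate 2 (log2 fold change 0.23) and at least 0.238 under the other 9 alternatives and as reported.

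All 9 genes passed the filter on low counts in whole testes, and none reached an FDR below 0.05 with a change of at least 2-fold there, where 5.32% of the 16554 tested genes were called higher and 1.78% lower. By unadjusted p 5 of the 9 were below 0.05 (33.9% of all genes), and DESeq2 also called none at this fold. At an FDR below 0.05 with any fold, 3 of 9 were lower (8.51% of all genes) and none was higher (10.6%). Prmt1-dKO lay below WT without overlap for 4 of 9 genes (19.9% of all genes) and above it for 1 of 9 (20.9%). The median log2 fold change of the 9 was -0.31 beside 0.02 over all tested genes. In bulk tissue a smaller share of the cells that carry a transcript and less transcript per cell cannot be told apart, and the part of the lower Leydig, Sertoli, peritubular and germ cell marker levels in these differences was not tested.

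**Figure D1:**
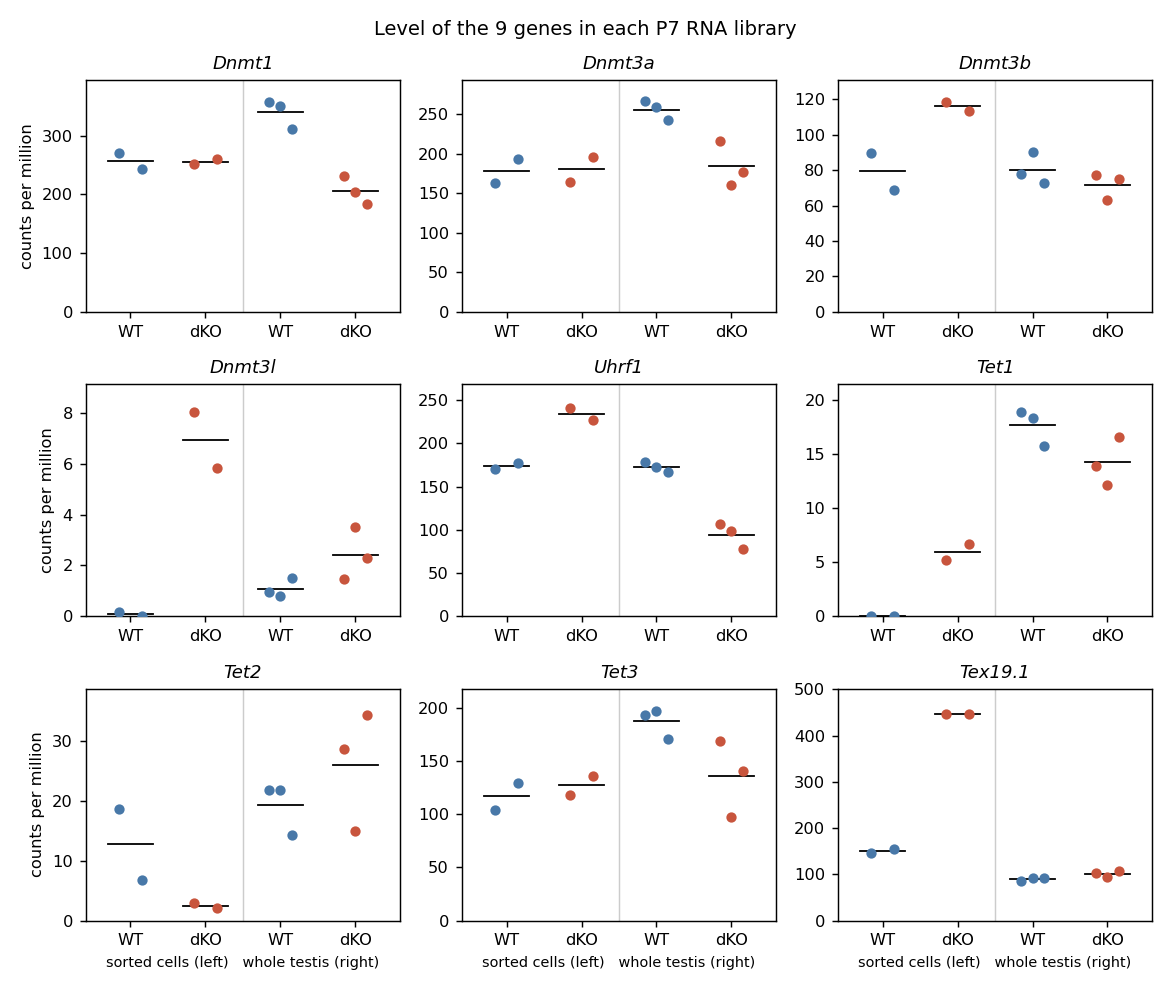
CPM (y axis, linear from 0, scaled by TMM within each assay) of each of the 9 genes in every P7 library, with WT in blue, Prmt1-dKO in red and a black line at the group mean. Sorted cells are on the left of each panel and whole testes on the right; Dnmt1 and Uhrf1 show Prmt1-dKO testes below WT testes, Tet1 is at 0 in both sorted WT libraries, and Tex19.1 reaches 446 CPM in both sorted Prmt1-dKO libraries.

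In sorted spermatogonia the picture was different. Dnmt1 had 271 and 243 CPM in WT and 252 and 260 CPM in Prmt1-dKO cells, a log2 fold change of -0.01 (SE 0.15) whose sign turned with the setting. Uhrf1 had 170 and 178 CPM in WT and 241 and 227 CPM in Prmt1-dKO cells, with no overlap and a log2 fold change of 0.43 (SE 0.14), opposite in sign to whole testes, that did not pass the test (FDR = 0.166). Dnmt3a had 163 and 194 against 165 and 196 CPM (0.02, SE 0.18, FDR = 0.978; negative under DESeq2 and RLE scaling), and Tet3 104 and 129 against 118 and 136 CPM (0.12, SE 0.20, FDR = 0.803). Both pairs of groups overlapped. Dnmt3b had 89.8 and 69.0 CPM in WT and 119 and 114 CPM in Prmt1-dKO cells, apart without overlap (0.55, SE 0.21, FDR = 0.22; 0.77 with FDR = 0.00505 without WT replicate 1).

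The scarce members Tet1, Dnmt3l and Tet2 had few or no counts in one of the sorted genotypes. Tet1 had 0 expected counts in both sorted WT libraries and 81 and 101 in the Prmt1-dKO libraries. Against a floor of 3 counts over the WT group this is at least 67.7-fold higher in Prmt1-dKO, while the exact interval of the ratio, for counting error only, starts at 54.5. Dnmt3l had 3 and 0 expected counts in WT and 125 and 88 in Prmt1-dKO cells, a ratio of 79.2 (exact interval for counting error only, 26.7 to 387). The ratios of Tet1 and Dnmt3l are of summed counts over summed library totals, without TMM. Tet2 went the other way, with 361 and 129 counts in WT and 45 and 31 in Prmt1-dKO cells, or 18.7 and 6.75 against 2.90 and 2.05 CPM. All 3 were apart without overlap, and none passed edgeR's test (FDR = 0.0774 for Tet1, 0.138 for Dnmt3l and 0.273 for Tet2). Tet1 and Dnmt3l entered the test only through the Prmt1-dKO libraries where they were counted, so a call for either gene is no support for a difference. Their calls turned with single libraries and with the tool, from FDR values of at most 1.7e-05 without either WT library, and 6.4e-04 and 0.0029 by DESeq2, to 0.9997 and 0.9999 without either Prmt1-dKO library. Tet2 passed without WT replicate 2 (FDR = 2.4e-05). Such fits hold a group of 1 library.

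Absence in a sorted WT library was common. Between the sorted WT libraries, 1255 genes went from at most 1 count to 100 or more, against 24 genes between the Prmt1-dKO libraries. At most 3 counts in both sorted WT libraries with at least 50 in both Prmt1-dKO libraries, the pattern of Tet1 and Dnmt3l, was shown by 377 genes, and the reverse by 30. Macrophage markers were absent in sorted WT libraries and the summed Sertoli and germ cell markers were higher in sorted Prmt1-dKO libraries, and the part of any of these features in the sorted-cell differences was not tested.

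Tex19.1, chosen by this contrast and given as a description, had 2822 and 2947 counts in sorted WT cells and 6922 and 6744 in sorted Prmt1-dKO cells. That is 146 and 154 against 446 and 446 CPM, means of 150 ± 5.80 and 446 ± 0.62 CPM (SD, n = 2 each), a log2 difference of 1.57. Its neighbour and close paralog Tex19.2, named for this likeness and outside the rule for named genes, had 924 and 1190 against 1357 and 1201 counts, and reads that fit both genes may have been split between them. Among the 16693 genes with a mean of at least 1 TPM, those whose pattern over the 10 libraries was most like that of Tex19.1 were Krtcap3, Hspbap1 and Ptrhd1, with a root mean square difference of centred log2(TPM + 1) of 0.15, 0.17 and 0.19. Krtcap3 had 38.7 and 40.6 TPM in sorted WT cells and 85.5 and 86.5 TPM in sorted Prmt1-dKO cells, and 28.4 to 37.3 TPM in the testis libraries. For Dnmt3l the nearest patterns were those of Cfap74, Trim63 and AC131719.1 (0.27, 0.28 and 0.30), each at or below 0.2 TPM in both sorted WT libraries.

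Counted over the 8 genes other than Tex19.1, edgeR called none in sorted cells, as it called 0% of the 16443 tested genes in either direction. At an unadjusted p below 0.05 with at least 2-fold, 2267 genes were higher and 678 lower, and DESeq2 called 1238 higher and 664 lower. Prmt1-dKO lay above WT without overlap for 4 of the 8 genes (36.3% of all genes) and below it for 1 (20.3%). Of the 4, Tet1 and Dnmt3l entered the test only through the Prmt1-dKO libraries, which leaves Dnmt3b and Uhrf1. The biological coefficient of variation was 0.767 in sorted cells and 0.155 in testes.

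**Figure D2:**
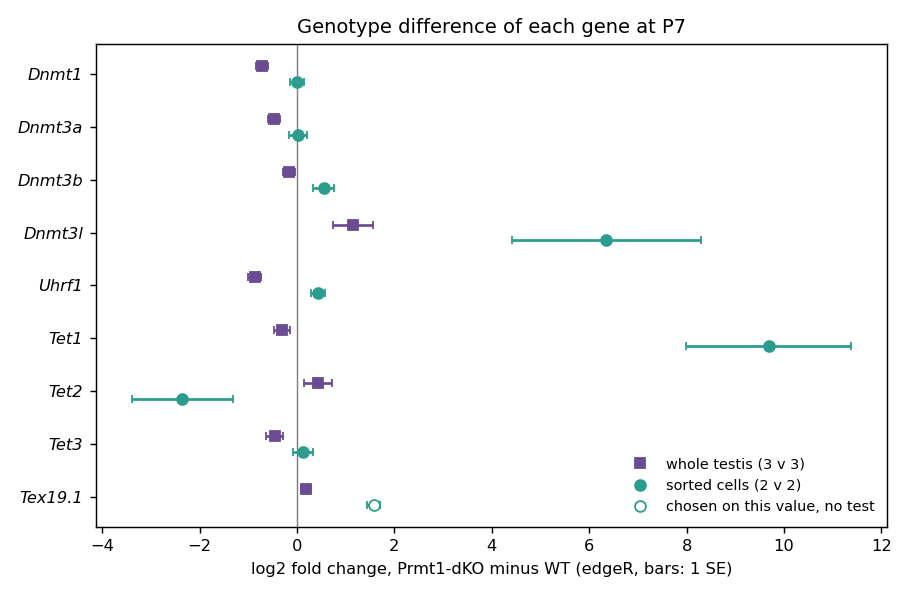
Log2 fold change of Prmt1-dKO against WT (x axis, edgeR) for each gene, with bars of 1 SE. Squares show whole testes (3 against 3 libraries) and circles sorted cells (2 against 2), the open circle being Tex19.1 on the contrast that chose it; Uhrf1 is at -0.87 in testes and 0.43 in sorted cells, and Tet1 and Dnmt3l have the widest bars.

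Whether the genotype difference itself differed between sorted cells and whole testes was tested over all 10 libraries for the 8 genes other than Tex19.1. Uhrf1 differed by 1.39 on the log2 scale (SE 0.20, FDR = 0.00175), from lower in testes to higher in sorted cells, and Dnmt1 by 0.80 (SE 0.18, FDR = 0.0165). Dnmt3l (5.27, SE 1.21, FDR = 0.0163) and Tet1 (9.90, SE 0.70, FDR = 1.6e-04) had larger differences that rest on the near absence in sorted WT libraries, and Tet2 differed by -2.70 (SE 0.74, FDR = 0.0348). For Dnmt3b (0.79, FDR = 0.0525), Dnmt3a (0.58, FDR = 0.106) and Tet3 (0.67, FDR = 0.174) no difference between the assays was shown. In all 5 of 8 passed, beside 19% of the 19608 genes tested. Tet1 and Dnmt3l among them had 0 and 3 summed counts in sorted WT cells and give no support, which leaves Uhrf1, Dnmt1 and Tet2. The count was 3 of 8 without any single WT testis library or without Prmt1-dKO testis replicate 3. This fit shares 1 estimate of the spread per gene between assays that differ in their spread, and cells and library method cannot be told apart.

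The wider methylation pathway was read from 36 genes listed by hand, of which 35 were tested. In whole testes 1 was called lower, 0 higher, beside 1.78% and 5.32% of all genes, with 2 higher and 6 lower at an FDR below 0.05 with any fold, beside 10.6% and 8.51%, and a median log2 fold change of -0.14. The called gene was Dnmt3c, a rodent paralog of Dnmt3b that methylates young retrotransposons in male germ cells, with 52, 31 and 33 counts in WT and 12, 12 and 2 in Prmt1-dKO testes (log2 fold change -1.95, SE 0.56, FDR = 0.0413). Reads shared with Dnmt3b may be split between both. The others, named after their values were seen, were lower for Pcna, the replication clamp (log2 fold change -0.48), Tdg, the glycosylase that removes oxidised cytosine (-0.40), Mat2a, which makes the methyl donor (-0.36), and Idh1 and Idh2, sources of the cofactor of TET enzymes (-0.40 and -0.49). They were higher for Zfp57, a keeper of imprinted methylation (0.75), and Morc1, a retrotransposon silencer of male germ cells (0.63), with FDR values from 0.00563 to 0.042 over these 7 genes.

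Of 16 germline genes known as targets of promoter methylation, all were tested and none was called in whole testes. At an FDR below 0.05 with any fold 2 of 16 were higher, a share near the 10.6% of all genes: Sycp3, of the synaptonemal complex (0.56, FDR = 0.00877), and Brdt, a bromodomain protein of spermatocytes (0.77, FDR = 0.00851). Ddx4, the germ cell helicase whose locus carries the knock-in, was lower (-0.67, FDR = 0.0184). These 3 were named after their values were seen. In sorted cells Sycp3 and Brdt lay lower in both Prmt1-dKO libraries, with log2 fold changes of -0.30 (FDR = 0.381) and -0.75 (FDR = 0.248) that did not pass the test. The median of the 16 was 0.23 in testes and -0.12 in sorted cells, where the median of all genes was 0.15, and that of the pathway list in sorted cells was 0.25. In sorted cells none of either list was called.

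At the chromatin of WT tubule cells, Tex19.1 and Dnmt3l stood apart from the other 7 genes. H3K4me3, a mark of active or poised starts, had summits within 3000 bp of a start of the other 7 genes in both lists at P7 and both at P14. Tex19.1 and Dnmt3l had none in either P7 list and one in both P14 lists, a full gain that 2.02% of the 21938 protein-coding genes showed. At Tex19.1 the P14 summits lay 8 and 275 bases before the start, with fold enrichments over local background of 3.95 and 4.50 and −log10 q of 4.89 and 5.70. At Dnmt3l they lay 1138 and 1359 bases after the first protein-coding start (4.49 and 4.36), beyond a window of 1000 bp. Summits were assigned to genes by distance alone. The window chr10:78042037-78042286, just before that Dnmt3l start, holds 75 bases annotated as untranslated region. No protein-coding Dnmt3l transcript starts further upstream, and whether the summits belong to an overlapping gene was not tested. The P7 lists held 19162 and 18465 H3K4me3 peaks and the P14 lists 25627 and 26635, with 60.7% and 63.1% of protein-coding genes marked (a summit in at least 2 lists of the group). While no P7 list had such a summit at Tex19.1, its RNA was at 121 to 126 TPM in sorted WT cells and 92.4 to 99.5 TPM in WT testes of the same age.

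The other genes had H3K4me3 at defined starts. Dnmt3a carried summits in all 4 lists both at the upstream starts and at the internal start, where P7 summits lay 297 and 458 bases before the annotated start at 3891728 and another 304 bases after that at 3891744. At Tet1 the summit lay 125 to 139 bases after the start at 62887324 in all 4 lists, including both P7 lists, although Tet1 had no counts in the sorted WT libraries of that age; WT testes had 250 to 299 counts. A further Tet1 summit lay 267 to 294 bases before the internal start at 62865304. Uhrf1 had a summit within 25 bases of an annotated start in each of the 4 lists, and Tet3 carried summits at 2 start regions in each.

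**Figure D3:**
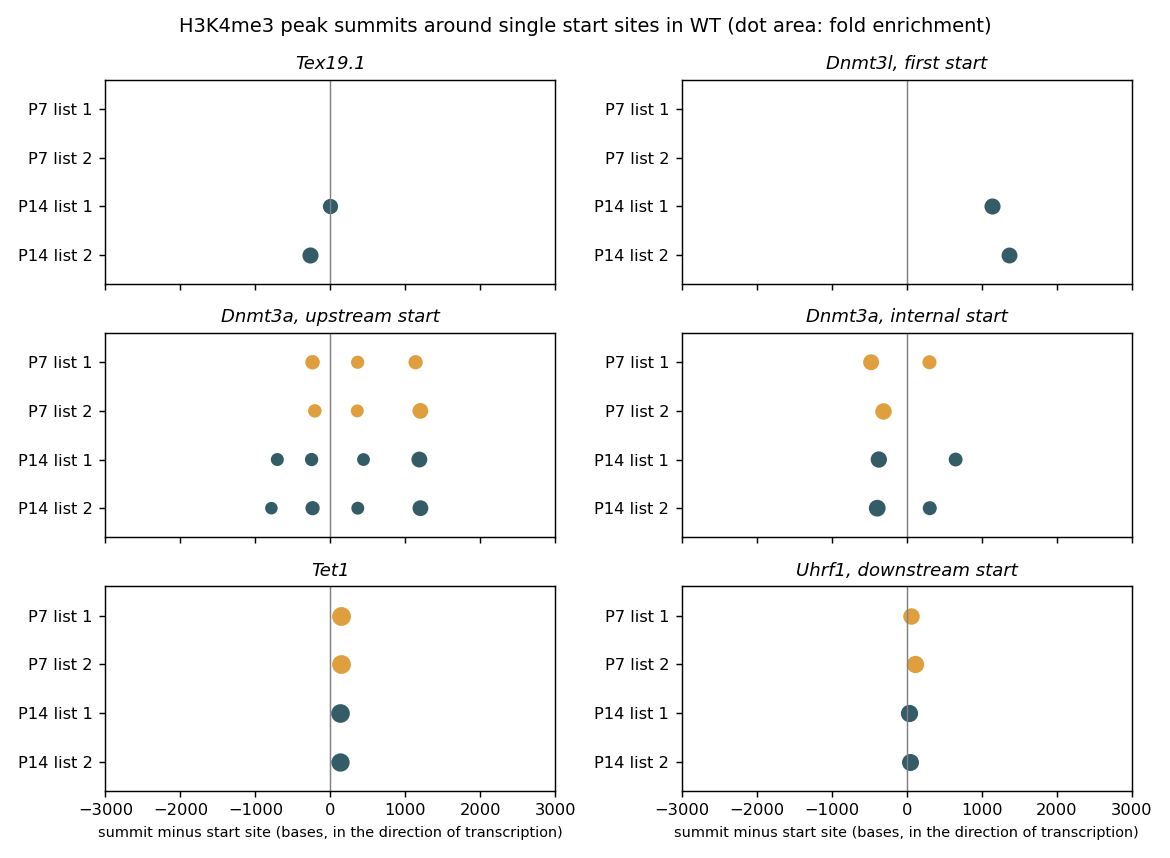
H3K4me3 peak summits in the 2 P7 (orange) and 2 P14 (dark) WT lists, placed by their distance in bases from single start sites (x axis, negative before the start); each row is 1 list and dot area is fold enrichment. Rows for P7 are empty at Tex19.1 and at the first protein-coding start of Dnmt3l, while Dnmt3a has summits at both starts, Tet1 125 to 139 bases after its start, and Uhrf1 close to its start, in every list.

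H3K27ac, which marks active promoters and enhancers, had summits in both lists at 4 of 9 genes at P7 (Dnmt1, Tet1, Tet2 and Tet3; 30.9% of protein-coding genes) and at 8 of 9 at P14, all but Dnmt3l (48.9%). Tex19.1 was the 1 gene that went from no list to both lists, a change seen in 7.93% of protein-coding genes, with a P14 summit 116 and 274 bases before the start in lists 1 and 2. H4R3me2a, the product of Prmt1, was present in at least 2 of 3 lists at Dnmt1, Dnmt3a and Tet1 at P7 (3 of 9, beside 15.3% of protein-coding genes) and at all but Uhrf1 at P14 (8 of 9, beside 49%). Tet1 had it in all 6 lists, and Tex19.1, Dnmt3l, Uhrf1 and Tet2 had it in none at P7. The P7 peaks of this mark overlapped between lists at Dnmt1 and Tet1, but not at Dnmt3a. At Dnmt3a the list 1 summits were nearest the starts at 3807160, 3895593 and 3906816, and that of list 3 nearest 3885449. None of these Dnmt3a summits had a q of at most 0.01. No gene of the 9 went from none to all 3 lists for H4R3me2a (8.91% of protein-coding genes), H4R3me2s (2.01%) or from none to both for H4R3me1 (9.77%). For H3R2me2a Uhrf1 did so (21.3%) and for H3R8me2a Tet2 (12.8%).

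Over 7 marks and 9 genes, 25 of 63 pairs were marked at P7 (39.7%) and 45 of 63 at P14 (71.4%). At a q of at most 0.01 these counts were 8 and 28. Among protein-coding genes 22.3% and 44.2% of such pairs were marked, and among all annotated genes 11.6% and 23.5%. The 9 genes have many annotated starts, with promoter windows of 6015 (Tex19.1) to 50882 bases (Dnmt3a) beside a median of 8823 for protein-coding genes, and the part of window length in these shares was not tested. The P14 lists were longer than the P7 lists of the same mark for every mark but H4R3me2s, whose lists ran from 19981 to 36145 peaks at P7 and 18423 to 33814 at P14. Read numbers behind the lists are unknown. Per gene, Dnmt1, Dnmt3a and Tet1 led at P7, and they also had the longest promoter windows (24378, 50882 and 41670 bases). Tex19.1 and Dnmt3l had no mark in at least 2 lists at P7. At P14 Tex19.1 was marked by H3K4me3, H3K27ac and H4R3me2a and Dnmt3l by H3K4me3 and H4R3me2a.

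**Figure D4:**
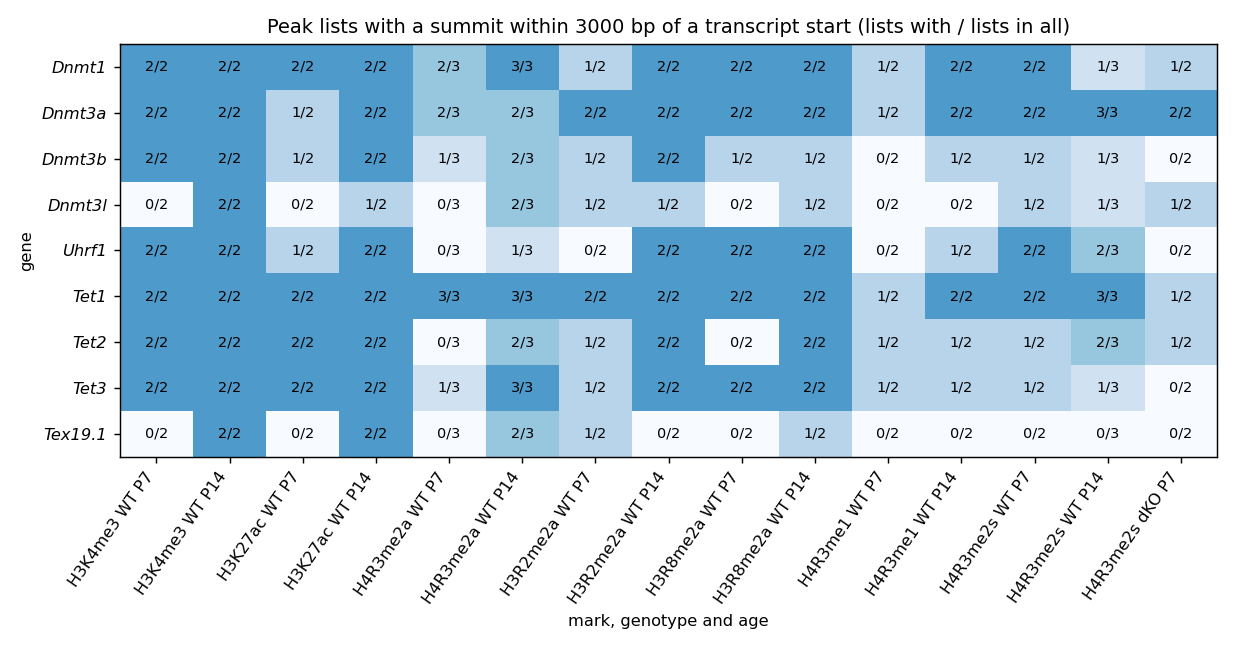
Number of peak lists with a summit within 3000 bp of any transcript start, over the number of lists, for each gene (rows) and each mark, genotype and age (columns); darker blue is a larger share of lists. Tex19.1 and Dnmt3l are empty for H3K4me3 at P7 and filled at P14, and the last column, H4R3me2s in Prmt1-dKO at P7, reaches both lists at Dnmt3a alone.

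H4R3me2s, the symmetric mark on the same arginine that Prmt1 methylates asymmetrically, was the mark profiled in both genotypes. In WT at P7 it was present in both lists at 4 of 9 genes, Dnmt1, Dnmt3a, Uhrf1 and Tet1, beside 17.7% of protein-coding genes. In Prmt1-dKO at P7 it was present in both lists at 1 of 9, Dnmt3a, beside 9.77% of protein-coding genes. Uhrf1 went from both WT lists to neither Prmt1-dKO list, as did 5.54% of protein-coding genes, while Dnmt1 and Tet1 had a summit in 1 of 2 Prmt1-dKO lists, at other positions than in WT. Positions differed between the lists: at Uhrf1 the WT summits lay 2 and 115 bases after different starts in peaks that did not overlap (−log10 q of 0.79 and 0), at Dnmt1 the WT summits lay 52 and 470 bases after different starts and the Prmt1-dKO summit lay near another start, at Tet1 no Prmt1-dKO peak overlapped a WT peak, and at Dnmt3a the 2 Prmt1-dKO summits lay at different starts. The peaks were weak, with no gene of the 9 marked in either genotype at a q of at most 0.01. With 2 lists against 2 no exact test can reach 0.05, so these counts are descriptions.

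RSEM also deposited for each gene the length of its transcripts weighted by their estimated abundance, and this length set several members apart between the assays. For Dnmt3a it was 1453 to 1844 bases in the 4 sorted libraries and 7142 to 7982 bases in the 6 testis libraries. The annotated transcripts of Dnmt3a include 9685 and 8737 bases from the upstream starts and 5424 and 2328 bases from the internal start, and also shorter ones, among them 1115 and 827 bases from the upstream starts and 369 to 814 bases from other starts, so the length does not tell the start. Dnmt1 (3080 to 3669 against 4969 to 5163 bases) and Tet3 (3945 to 6266 against 10442 to 10865 bases) were shorter in sorted cells too, without overlap, as was Tet1 in the sorted Prmt1-dKO libraries (1198 and 1495 against 6998 to 14131 bases). Uhrf1 (3162 to 3355 against 3236 to 3361 bases), Dnmt3b, Dnmt3l and Tex19.1 overlapped between the assays. Between genotypes the sorted Dnmt3a lengths were 1453 and 1585 bases in WT and 1634 and 1844 in Prmt1-dKO cells, apart without overlap, and in testes they overlapped. Such lengths depend on how evenly reads cover a transcript, so isoforms, cells and library method cannot be told apart here.

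**Figure D5:**
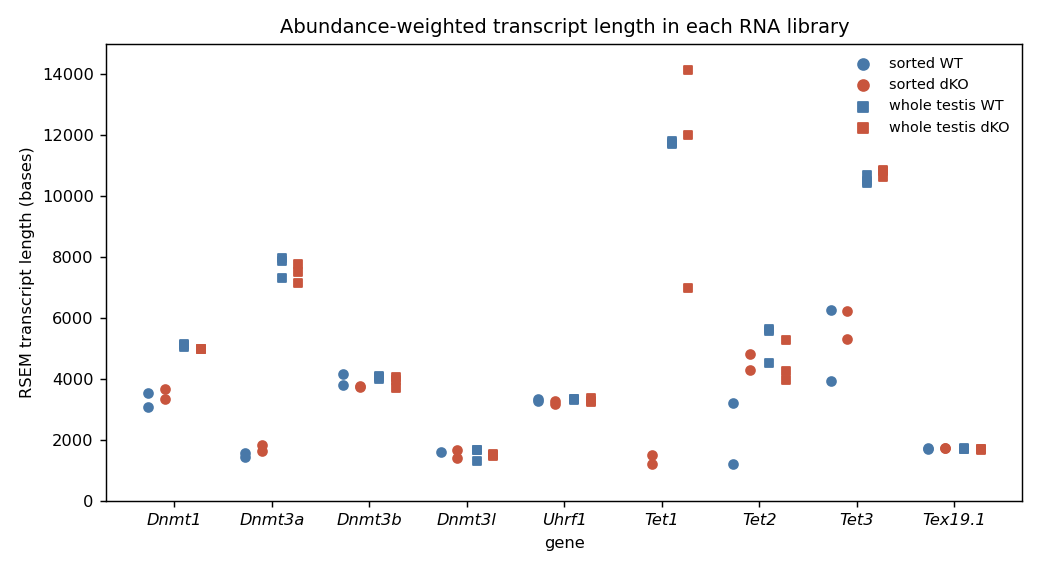
Abundance-weighted transcript length from RSEM (y axis, bases, from 0) of each gene in every P7 library with at least some reads of it; circles are sorted cells, squares whole testes, blue WT and red Prmt1-dKO. Dnmt3a lies at 1453 to 1844 bases in sorted cells and at 7142 to 7982 bases in testes, while Uhrf1 and Tex19.1 sit at the same length in both.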

How the data were processed

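RNA was measured in 10 P7 libraries and chromatin marks in 33 CUT&Tag samples. The authors trimmed reads with fastp 0.23.2, mapped them to mm10 with STAR and deposited RSEM expected counts, TPM and transcript lengths per gene, with no normalization of the counts; the RSEM version is not given in the sources used here, nor is its annotation. The authors called peaks per sample with MACS2 2.1.0 and deposited each peak's fold enrichment (a ratio to local background), −log10 p and −log10 q. List names carry a p of 0.005, or a q of 0.05 for H3K4me3; the CUT&Tag aligner is likewise not stated. Fold enrichments were not compared between lists.

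Expected counts were rounded, filtered with filterByExpr, scaled by TMM and tested across all genes with edgeR 4.0.16 (quasi-likelihood, R 4.3.3) within each assay, with Benjamini-Hochberg adjusted p (FDR). A gene was called at an FDR below 0.05 and at least 2-fold. The SE of a log2 fold change is its absolute value divided by the square root of edgeR's F statistic, an approximation. DESeq2 1.42.0, RLE scaling, no filter, a replicate block and leaving out each library were alternatives. The edgeR fits were tested on simulated counts, the peak search on planted peaks and the motif search on short test sequences. Promoter peaks had a summit within 3000 bp of a GENCODE vM21 transcript start, and a gene was marked when at least 2 lists of a group had one. Of 55401 gene identifiers 55141 matched vM21. Promoter sequences are from RefSeq (GRCm38.p6), and all 9 genes matched. Genes named beyond the 9 are Prmt1, called genes of the 2 lists and the 3 nearest patterns of Tex19.1 and Dnmt3l, plus exceptions marked as such. The members and lists were chosen with earlier results of these data known. Python 3.11.15 was used for the other steps.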

Additional observations from a re-analysis of the deposited data

Results flagged for a closer look

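The genotype difference in sorted cells and that in whole testes differed for 5 genes by the interaction test of edgeR, and for 3 genes with the replicate block or without any 1 of 6 libraries. Tet1 and Dnmt3l are 2 of the 5 and had 0 and 3 summed counts in sorted WT cells, so their values are no support for such a difference. The differences on the log2 scale were 0.80 for Dnmt1, 5.27 for Dnmt3l, 1.39 for Uhrf1, 9.90 for Tet1 and -2.70 for Tet2. Uhrf1 was lower in every Prmt1-dKO testis library than in every WT one and higher in both sorted Prmt1-dKO libraries than in both WT ones. The values of Tet1 and Dnmt3l rest on sorted WT libraries in which they had 0 to 3 counts, and that of Tet2 on 361 and 129 counts in sorted WT against 45 and 31 in sorted Prmt1-dKO libraries.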

How the results depend on the processing

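In whole testes the directions of all 9 genes held under each of the 10 alternatives, Dnmt1 and Uhrf1 passed an FDR of 0.05 under every one, and the count of genes past 2-fold stayed at 0. In sorted cells DESeq2 called 2 of the 8 genes other than Tex19.1 higher where edgeR called 0, both genes that entered the test only through the Prmt1-dKO libraries. Leaving out single sorted libraries gave 0 to 2 higher and 0 to 1 lower; the lone library left in a group is then assumed to vary like the other group. The sign turned for Dnmt3a under DESeq2 (-0.032) and RLE scaling (-0.028), and over the fits without single sorted libraries for Dnmt3a (-0.14 to 0.16), Dnmt1 (-0.068 to 0.092) and Tet3 (-0.0082 to 0.31). The cause was not tested. Same-numbered libraries did not deviate together (correlation across genes of 0.08, -0.22 and -0.12 in testes and 0.02 in sorted cells), so the numbers share only a name; with the replicate block the assay difference passed for 3 genes instead of 5, and the counts per assay stayed at 0. Leaving out single libraries gave 3 to 6. At a q of at most 0.01, H4R3me2s was marked at 0 genes in WT and 0 in Prmt1-dKO, and 8 pairs were marked at P7 and 28 at P14. Leaving out list 1, 2 or 3 of each group gave 24 to 34 pairs at P7 and 39 to 47 at P14, where a group left with a single list was counted by that list alone. By this looser rule H4R3me2s, with 2 lists per genotype at P7, marked 6 genes in WT and 3 in Prmt1-dKO whichever list was left out, and these counts are not comparable with 4 and 1. A window of 1000 bp gave 20 and 38 pairs, and any overlap 25 and 45. The interaction was not run in DESeq2. Few counts limit Dnmt3l in testes and Tet1, Tet2 and Dnmt3l in sorted cells.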
